A study of Mus musculus with 8 samples.

Results

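Hox and craniofacial homeobox genes encode transcription factors that bind DNA through a homeodomain and set the position and identity of tissues. The Hox, Dlx, Msx, Alx and Pitx families and the Six-family genes were followed here in a catalogue of transcription start sites from mouse facial skin. A gene was a member if its symbol, as the authors attached it to a CAGE cluster, was a Hox gene symbol of loci A to D with a number, or one of Dlx, Msx, Alx, Pitx and the Six-family stem with a single digit. The rule found 35 genes, 22 Hox genes and 13 facial homeobox genes, among the 16094 symbols of the catalogue. The RefSeq gene table (GRCm38.p6) holds 60 genes of these names, 39 Hox and 21 facial. The counts below cover all 60, and a few of them are not reported individually.

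CAGE reads RNA from its cap, so that each tag is taken to mark where a transcript begins. A CAGE cluster is a stretch of genome where such tags pile up. Clusters are called start sites on that basis, which was not tested. Facial skin was taken from 8 C57BL/6 mice on postnatal day 28. In 4 of them, labelled lesional, the genotype was given as Nectin-cre(+);Ikk2FL/FL, with the Cre line written Nestin-cre in the series text, so the kinase gene Ikk2 was floxed. The other 4 were labelled non-lesional, with a genotype given only as Control. Genotype and lesion therefore cannot be told apart.

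The 8 columns of values in the deposited table carry names that match no label of a sample. They were not used, so no level of expression and no difference between lesional and control skin is given for any gene, and the depth of the libraries was not analysed here. What follows describes which start sites were in the catalogue of the whole series, where they lay and how wide they were. A gene without a cluster may be silent, weakly transcribed or missed by the unstated rule for calling clusters, and these cannot be told apart here. The catalogue held 84475 CAGE clusters, of which 46376 carried a symbol (54.9%), and the 35 genes accounted for 133 of them. Markers of several cell types were also looked up, beside the 63.3% of protein-coding genes that were listed. Presence in the catalogue at any width cannot check the label of skin. All 5 keratinocyte markers, all 5 matched hair matrix and shaft markers (Hoxc13 itself is 1 of them), all 5 dermal fibroblast markers and all 8 skeletal muscle markers were listed, as were 3 of 5 bone and cartilage markers and 0 of 4 pituitary markers.

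The mouse Hox genes lie in 4 loci, HoxA to HoxD, in each of which all genes of the family read in the same direction. Genes are numbered by paralogue group. Low numbers lie at the 3′ end of a locus and act from the hindbrain backwards, and high numbers lie at the 5′ end and act in the lower trunk, limbs and genitalia. Neural crest cells that build the front of the face are known for making no Hox products, and their identity is set instead by genes of the Dlx, Msx, Alx, Pitx and Six-family type. Several of these genes are used again in the postnatal hair follicle, among them Hoxc13, Dlx3 and Msx2.

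The RefSeq promoter (GRCm38.p6) is printed for each listed member that had 7 or more CAGE clusters and an entry in the promoter table. Each runs from 250 bases before to 50 after the annotated start, 5′ to 3′ on the strand of the gene. Capitals mark matches to the core promoter motif TATAAA, the NF-Y motif CCAAT, the core TAATTA that many homeodomains bind, or the joint Hox and Pbx motif TGATTNAT, each searched on both strands. The Dlx2 promoter is at chr2:71546705-71547004 on the minus strand, that of Msx2 at chr13:53472731-53473030 on the minus strand, that of Hoxa7 at chr6:52218524-52218823 on the minus strand and that of Hoxd8 at chr2:74704365-74704664 on the plus strand.
Dlx2: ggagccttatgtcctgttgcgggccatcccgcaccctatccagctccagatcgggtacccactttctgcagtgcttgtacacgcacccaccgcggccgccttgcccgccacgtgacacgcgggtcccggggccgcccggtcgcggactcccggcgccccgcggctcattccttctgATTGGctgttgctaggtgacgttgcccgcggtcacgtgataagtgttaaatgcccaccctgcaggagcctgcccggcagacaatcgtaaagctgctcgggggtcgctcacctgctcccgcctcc
Msx2: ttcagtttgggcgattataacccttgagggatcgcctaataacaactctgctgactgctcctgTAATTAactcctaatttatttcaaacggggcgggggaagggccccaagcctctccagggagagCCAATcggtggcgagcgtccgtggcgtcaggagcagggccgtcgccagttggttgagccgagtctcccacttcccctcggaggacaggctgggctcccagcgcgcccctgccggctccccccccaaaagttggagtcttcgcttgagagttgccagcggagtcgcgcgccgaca
Hoxa7: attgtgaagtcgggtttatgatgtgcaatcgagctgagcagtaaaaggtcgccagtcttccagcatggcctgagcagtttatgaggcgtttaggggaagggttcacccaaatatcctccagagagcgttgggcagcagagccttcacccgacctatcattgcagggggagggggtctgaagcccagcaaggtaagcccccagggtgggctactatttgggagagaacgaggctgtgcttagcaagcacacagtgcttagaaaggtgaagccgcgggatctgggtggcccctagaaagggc
Hoxd8: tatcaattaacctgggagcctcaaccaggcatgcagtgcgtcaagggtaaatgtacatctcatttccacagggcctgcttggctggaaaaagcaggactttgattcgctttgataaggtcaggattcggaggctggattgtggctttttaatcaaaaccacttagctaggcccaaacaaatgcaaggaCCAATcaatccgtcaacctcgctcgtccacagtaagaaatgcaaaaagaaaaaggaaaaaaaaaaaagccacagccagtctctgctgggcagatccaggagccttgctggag
In these windows Dlx2 held CCAAT on the opposite strand 74 bases before the annotated start, and Hoxd8 held CCAAT 62 bases before it. Msx2 held CCAAT at 124 and TAATTA at 187 bases before the annotated start, while Hoxa7 held none of the 4 motifs. GC content was 66.3% for Dlx2, 61.0% for Msx2, 55.7% for Hoxa7 and 46.7% for Hoxd8, so the 4 ran from GC-rich to nearly balanced. The table had promoters for 33 of the 60 genes, 18 listed and 15 not, and some of these genes had more than one promoter. CCAAT stood in 12 of 19 promoters of listed members and in 11 of 17 promoters of members without a cluster, against 38.2% of 21263 promoters of protein-coding genes. TATAAA stood in 2 of 19, 3 of 17 and 12.6%, TAATTA in 1 of 19, 2 of 17 and 4.53%, and TGATTNAT in 1 of 19, 1 of 17 and 2.75%. Median GC content was 60.3% for listed members, 60.0% for members without a cluster and 56.3% for protein-coding genes. The medians of listed and unlisted members lay close together. Because the deposited positions are on mm9 and the promoters on GRCm38.p6, the 2 were not laid over each other.

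The Hox genes with a start site in facial skin belonged, all but one, to paralogue groups 1 to 9. Of the 27 genes in these groups, 21 had a CAGE cluster (77.8%), while of the 12 genes in groups 10 to 13 a single gene did (8.33%), against 63.3% of protein-coding genes. With clusters of at least 10 bp alone, groups 1 to 9 kept 14 of 27 genes (51.9%) and groups 10 to 13 again 1 of 12, against 59.9% of protein-coding genes, so the share of groups 1 to 9 was above that of protein-coding genes over all clusters and below it over the wider ones. That gene was Hoxc13, the regulator of hair keratin genes whose loss leaves mice without normal hair. It had 10 of the 71 CAGE clusters of Hox genes, and its 11 neighbours by group (Hoxa10, Hoxa11, Hoxa13, Hoxb13, Hoxc10, Hoxc11, Hoxc12, Hoxd10, Hoxd11, Hoxd12 and Hoxd13) had none. Its 10 were closely spaced, and joining clusters at most 100 bp apart left 2 groups for Hoxc13, fewer than the 6 of Hoxd8, the 5 of Hoxb6 and the 5 of Hoxd3. Groups 10 to 13 include the genes best known for shaping limbs, digits and the urogenital tract. In groups 5 to 9, 13 of 15 genes were listed, and in groups 1 to 4, 8 of 12 were. The genes without a cluster in groups 1 to 9 were Hoxb1 and Hoxd1 of group 1, Hoxa4 and Hoxb4 of group 4, Hoxb5 of group 5 and Hoxc9 of group 9. No test was made of these shares, since whole families were counted and the genes were chosen with results known.

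**Figure D1:**
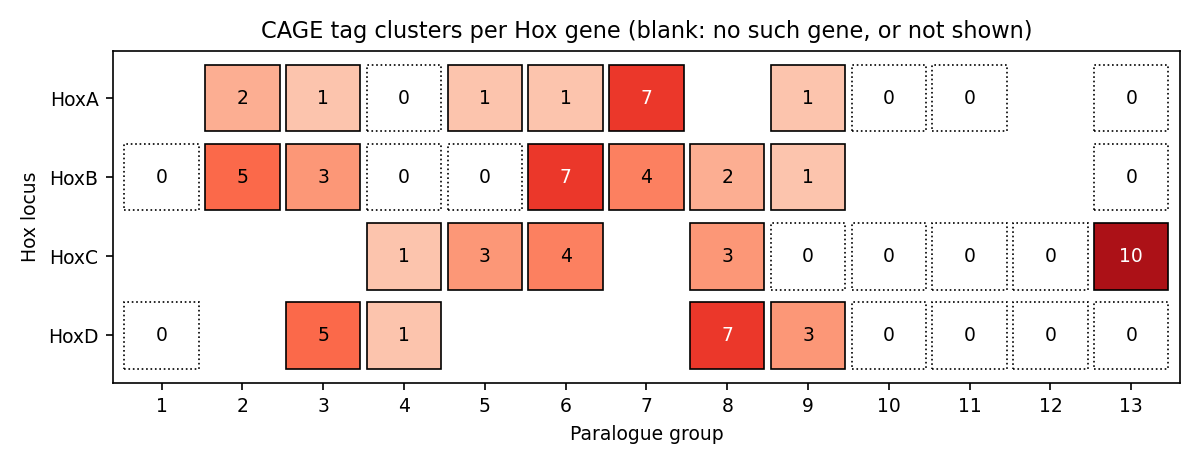
Number of CAGE clusters per Hox gene, with the 4 Hox loci in rows and the paralogue groups in columns; solid boxes are listed genes, dotted boxes genes with 0 clusters, and not every gene is shown. Groups 10 to 13 are at 0 except for Hoxc13, with 10.

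The facial homeobox families were listed to a like extent. Over all 39 Hox genes 22 had a CAGE cluster (56.4%), and over the 21 facial genes 13 did (61.9%), both near the 63.3% of protein-coding genes. As whole sets, they differed in the span of their start sites. Over all clusters the median span was 10 bp for Hox genes and 5 bp for facial genes, but by the widest cluster of each gene the order was the other way round. Counting only clusters that span at least 10 bp left 15 Hox genes (38.5%) and 12 facial genes (57.1%), against 59.9% of protein-coding genes. The widest cluster of a listed gene had a median span of 38.5 bp for Hox genes and 125 bp for facial genes, against 118 bp for all listed protein-coding genes. A widest cluster of 100 bp or more was found for 5 of 22 Hox genes (22.7%) and 8 of 13 facial genes (61.5%), against 61.3% of protein-coding genes. The families within each set were not alike, since the Hoxc median was 122 bp, near that of the facial genes, and none of the Six-family genes reached 100 bp. Neither the difference between the sets nor what the span reflects was tested. The number of clusters did not part the sets, as each had a median of 3 per listed gene, against 2 for protein-coding genes.

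**Figure D2:**
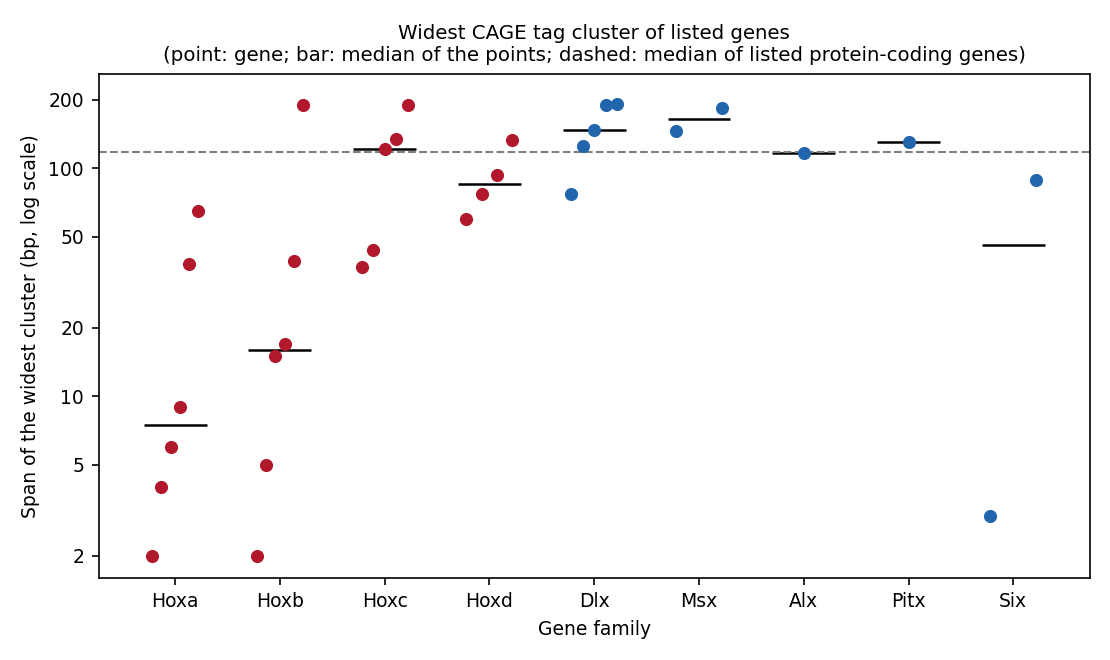
Span of the widest CAGE cluster of listed genes in bp on a log axis, by family, with Hox genes in red and facial genes in blue; bars are medians of the points, and the dashed line is the median of all listed protein-coding genes (118 bp). The Hoxa points run from 2 to 65 bp, the Hoxc median is 122 bp and the Dlx median 147 bp, while no Six-family point reaches 100 bp.

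HoxA, on the minus strand of chromosome 6 (mm9), had 7 of 11 genes listed (63.6%), near the 63.3% of protein-coding genes. Its start sites were thin, as the widest cluster of a listed gene had a median span of 6 bp, against 118 bp. No member cluster lay in the 39.6 kb between Hoxa2 and Hoxa5. Hoxa2, which specifies the second pharyngeal arch, had 2 clusters, the wider of 9 bp (52114822 to 52114831). Hoxa5, Hoxa6 and Hoxa9 had 1 cluster each, of 6, 2 and 4 bp. None of these 4 genes had a cluster of 10 bp or more. Hoxa7 had the most, with 7 clusters in 2 places 4.04 kb apart, the wider ones of 65 bp (52167061 to 52167126) and 44 bp (52171733 to 52171777). Hoxa3, needed for thymus and parathyroid, had a single cluster of 38 bp (52163332 to 52163370). This cluster lay 1642 bp upstream of that of Hoxa6, although the Hoxa3 gene comes after Hoxa4, Hoxa5 and Hoxa6 in the direction of transcription. In RefSeq on GRCm38.p6 the listed promoter of Hoxa3 likewise lies upstream of that of Hoxa6.

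**Figure D3:**
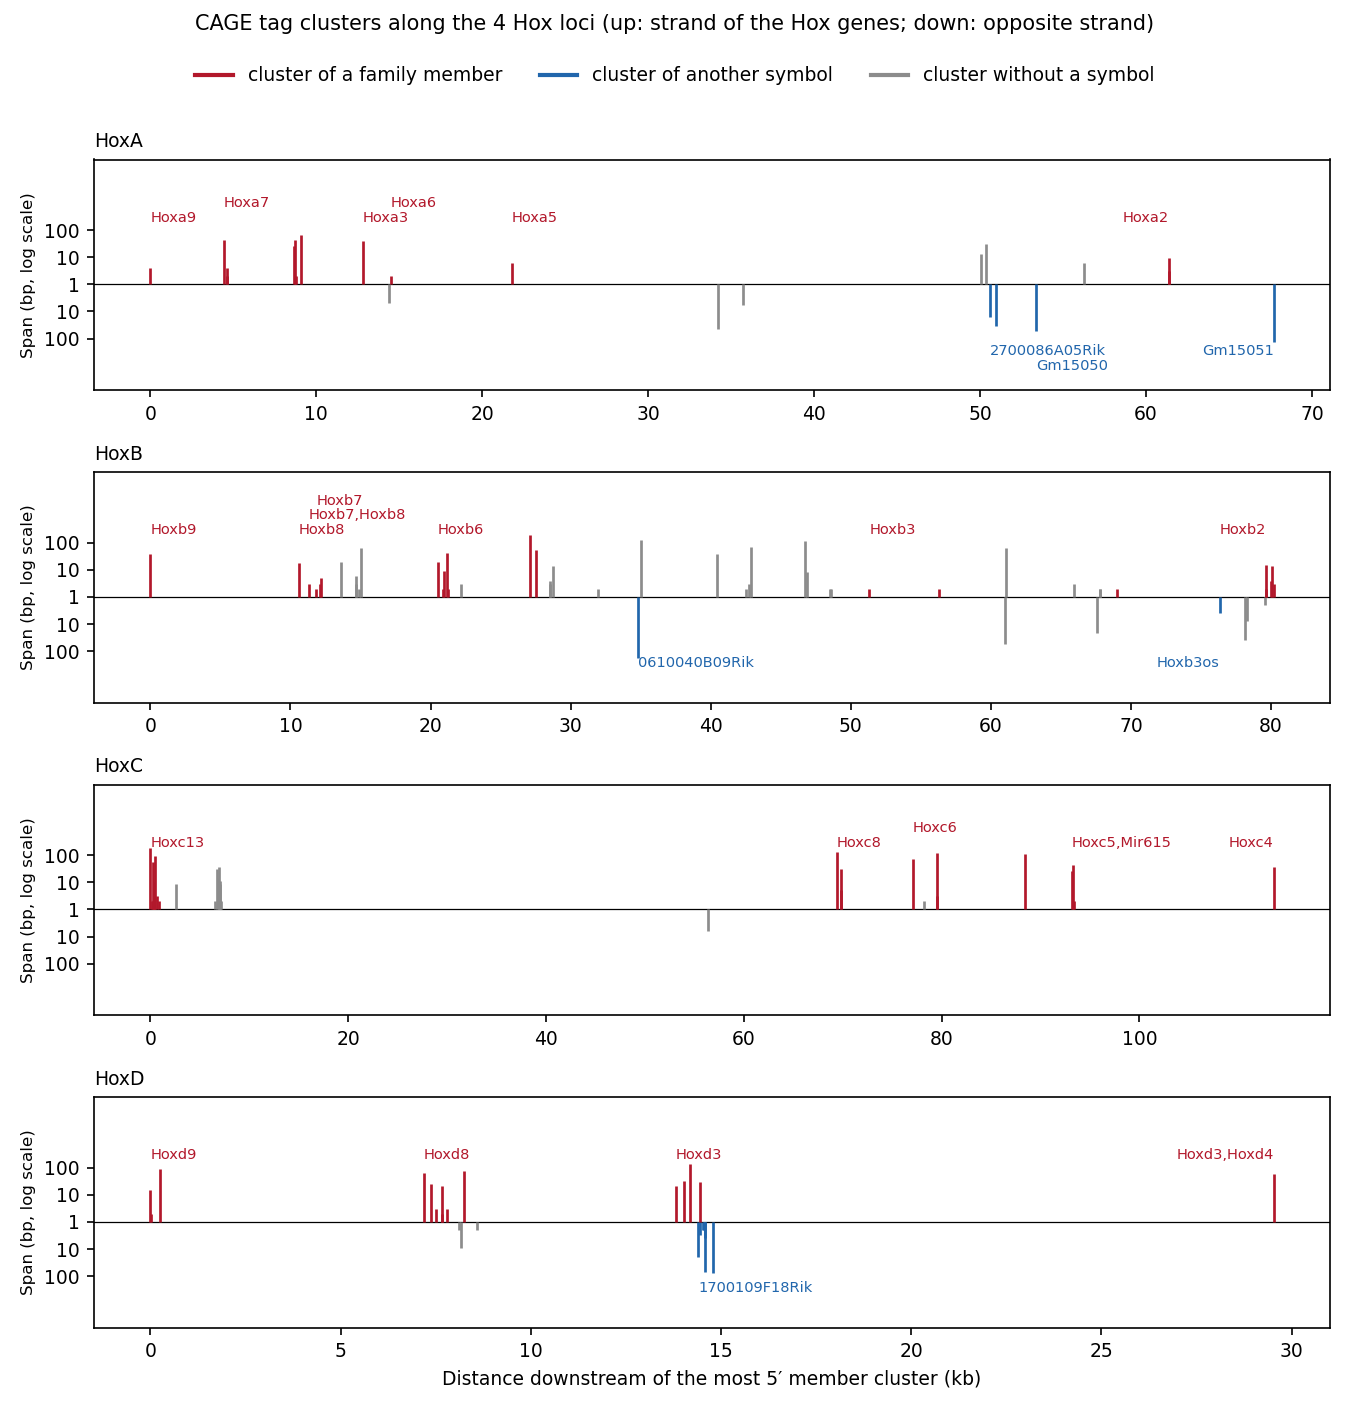
Position of every CAGE cluster along the 4 Hox loci, as the distance in kb from the most 5′ member cluster, with bar height giving the span in bp on a log scale; bars point up on the strand of the Hox genes and down on the opposite strand. HoxB has the most clusters without a symbol, 28 of 51 (54.9%, against 45.1% of all clusters), and HoxC has a gap of 68.5 kb between Hoxc13 and Hoxc8.

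HoxB, on the plus strand of chromosome 11, had 6 of 10 genes listed (60.0%), near the 63.3% of protein-coding genes. It had the most start sites without a symbol of the 4 loci. Hoxb6 led with 7 clusters in 2 places 5.86 kb apart, including one of 189 bp (96160364 to 96160553) that was the widest of the locus. Only 13.4% of listed protein-coding genes had a cluster at least as wide. Hoxb2, which acts in the hindbrain and the second arch, had 5 clusters of up to 15 bp, Hoxb7 had 4 of up to 5 bp and Hoxb9 had 1 of 39 bp. Hoxb3 had 3 clusters of 2 bp each, spread over 17674 bp. Hoxb8 had 2, of which one of 3 bp (96144589 to 96144592) was also given to Hoxb7, so it cannot be told which of them it starts. Beside the 21 clusters with a Hoxb symbol, the locus held 28 without any symbol, and 23 of them lay on the strand of the Hox genes. The 28 were 54.9% of the 51 in the interval, against 45.1% of all clusters in the catalogue and 36.4% over the 4 Hox loci together. Of those 28, 13 lay in the 23.7 kb between the last Hoxb6 and the first Hoxb3 cluster, the widest of 128 bp. Hoxb4 and Hoxb5, which had no cluster of their own, belong between Hoxb6 and Hoxb2 in the RefSeq order, but no symbol ties the unnamed sites to them.

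HoxC, on the plus strand of chromosome 15, had 5 of 9 genes listed (55.6%), against 63.3% of protein-coding genes. Each of the 5 had a cluster of at least 37 bp. The 10 Hoxc13 clusters lay within 846 bp, the widest of 189 bp (102751503 to 102751692), and others measured 96 bp (102751978 to 102752074) and 58 bp (102751740 to 102751798). Only 5.56% of listed protein-coding genes had as many clusters. Then came 68.5 kb without a member, where Hoxc12, Hoxc11, Hoxc10 and Hoxc9 lie in RefSeq order. This gap held 10 clusters without a symbol, the widest of 38 bp. Those on the strand of the Hox genes began 2627 to 7149 bp past the start of the first Hoxc13 cluster. The end of the Hoxc13 gene was not looked up, so they may lie inside it. The one on the opposite strand, of 6 bp, lay at 56397 bp. At the far side of the gap Hoxc8, a gene of the thoracic region, had 3 clusters with a widest of 134 bp (102820884 to 102821018). Hoxc6 had 4 in 3 places, of 74, 3, 122 and 107 bp, with gaps of 2310 and 8787 bp between the places. Hoxc4 had 1 of 37 bp.

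All 3 Hoxc5 clusters, of 25, 44 and 2 bp, had also been given to Mir615, a microRNA gene that lies in an intron of Hoxc5, so the catalogue does not separate the host transcript from the microRNA precursor. Its mature forms from RefSeq (GRCm38.p6, plus strand, the 5p arm at chr15:103014926-103014947 and the 3p arm at chr15:103014969-103014990) are shown with the seed, bases 2 to 8, in capitals.
mmu-miR-615-5p: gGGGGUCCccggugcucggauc
mmu-miR-615-3p: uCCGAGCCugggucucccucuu
The seeds of the arms differ. The other microRNA genes of the Hox loci looked up, Mir10a, Mir10b, Mir196a-1, Mir196a-2 and Mir196b, had no cluster under those symbols.

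HoxD, on the plus strand of chromosome 2, was the most compact, with 4 of 9 genes listed within 29.6 kb. That was 44.4% of its genes, against 63.3% of protein-coding genes. HoxD had 8.45 CAGE clusters per 10 kb, against 6.36 for HoxB, 3.54 for HoxA and 2.82 for HoxC. This order rests on the short interval, as with 10 kb added at each end HoxD had 5.24 and HoxB 6.09 clusters per 10 kb. Of the 15 Hoxd clusters, 11 spanned at least 10 bp, while the median widest cluster was 85 bp for Hoxd genes and 122 bp for Hoxc genes. Hoxd8 had 7 clusters of up to 77 bp, and Hoxd9 had 3 of up to 93 bp. Hoxd3 had 5, the widest of 133 bp (74549918 to 74550051). The first 4 lay together and the fifth 15041 bp downstream, and that one, of 60 bp (74565251 to 74565311), was the single cluster of Hoxd4. The shared site therefore does not show that Hoxd4 has a start of its own. Across all members, 5 of 133 clusters were shared with another symbol (3.76%), against 2.03% of all clusters with a symbol.

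Antisense and neighbouring transcripts of the Hox and Dlx loci were in the catalogue as well. Of 16 such RNAs in the RefSeq table whose names begin with a member family or with Hot, 7 were listed, most under an older symbol. Hotairm1, a noncoding RNA of HoxA, had 1 cluster of 130 bp under the symbol Gm15051. Hoxd3os1, as 1700109F18Rik, had 7 clusters of up to 77 bp lying among and just past the first 4 of Hoxd3. Hoxb5os, as 0610040B09Rik, had 1 of 186 bp, Hoxaas3, as 2700086A05Rik, had 2 of up to 34 bp, and Hoxb3os had 1 of 4 bp. Hotair, Hottip, Hoxa11os, Hoxaas2 and Hotairm2 had none, and neither did Dlx6os1, Dlx6os2, Msx1os or Six3os1. Upstream of Hoxc13, on the opposite strand, the symbol Gm17649 had 2 clusters, the nearer of 101 bp at a distance of 305 bp. Over all 35 genes, 12 had an opposite-strand cluster within 1000 bp of their extent (34.3%), close to the 34.6% of protein-coding genes.

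Among the facial genes, the Dlx family was the most fully listed, with 5 of 6 genes (83.3%), against 63.3% of protein-coding genes. It had 37 CAGE clusters, 19 of them of Dlx3. Dlx genes come in pairs that face each other, and nested Dlx expression sets upper against lower jaw. Dlx3, which drives hair shaft formation and epidermal differentiation, had 19 clusters within 1248 bp on the plus strand of chromosome 11. The widest spanned 147 bp (94981383 to 94981530), and 13 of the 19 spanned under 10 bp. Of listed protein-coding genes, 0.555% had as many clusters. Within 5 kb past the last Dlx3 cluster on the same strand lay a further 21 clusters without a symbol, the widest of 198 bp. As few as 0.0865% of protein-coding genes had 20 or more in that window. The end of the Dlx3 gene was not looked up, so these 21 may lie inside the gene. Joining clusters at most 100 bp apart reduced the 19 of Dlx3 to 2 groups, so its count comes from closely spaced pieces.

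**Figure D4:**
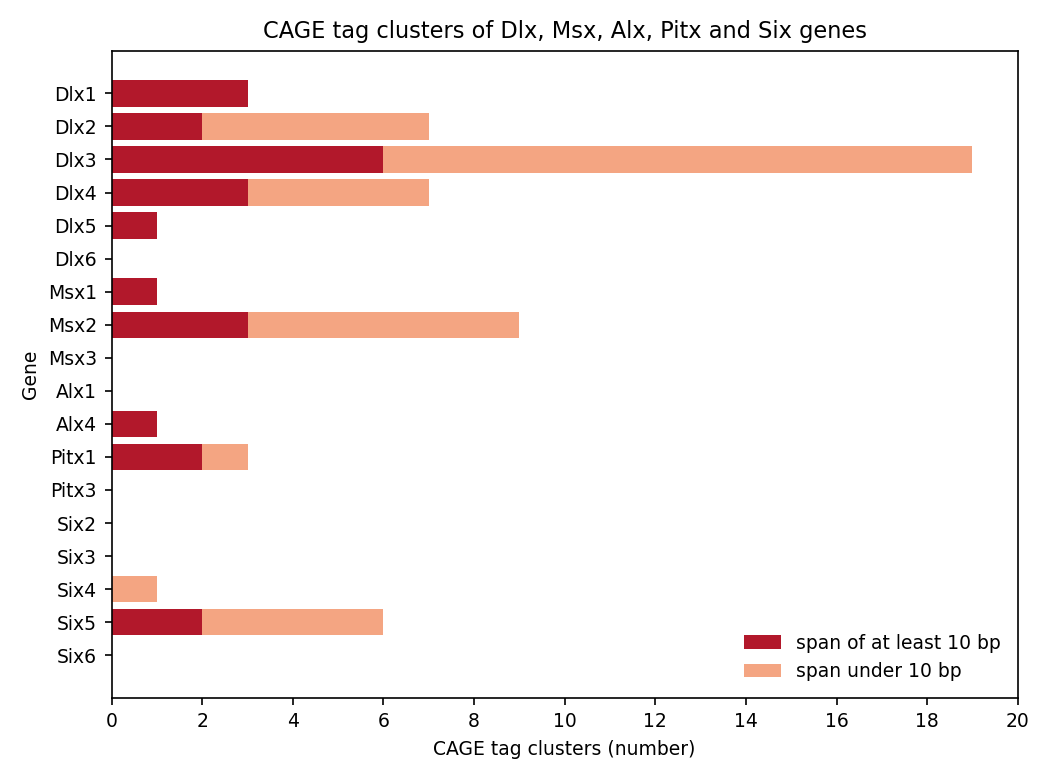
Number of CAGE clusters of Dlx, Msx, Alx, Pitx and Six-family genes, split by span. Dlx3, with 19, and Msx2, with 9, are the highest.

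Dlx4, the partner of Dlx3, lay 24.4 kb away on the minus strand with 7 clusters, one of 192 bp (95006864 to 95007056), the widest of all 35 genes. Its antisense RNA Dlx4os, as A730090H04Rik, had 5 clusters running against it, the widest of 133 bp, and 1 of them lay between those of Dlx4. Dlx1 and Dlx2, on chromosome 2, faced each other across 14.9 kb. Dlx1 had 3 clusters of 67, 77 and 71 bp, and Dlx2 had 7, the wider ones of 125 and 44 bp. Between them, Dlx1as had 1 cluster of 192 bp (71375801 to 71375993). Dlx5, a lower jaw gene under endothelin control, had 1 cluster of 190 bp (6831934 to 6832124), while its partner Dlx6 had none. All 5 listed Dlx genes therefore had at least 1 cluster of 77 bp or more.

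**Figure D5:**
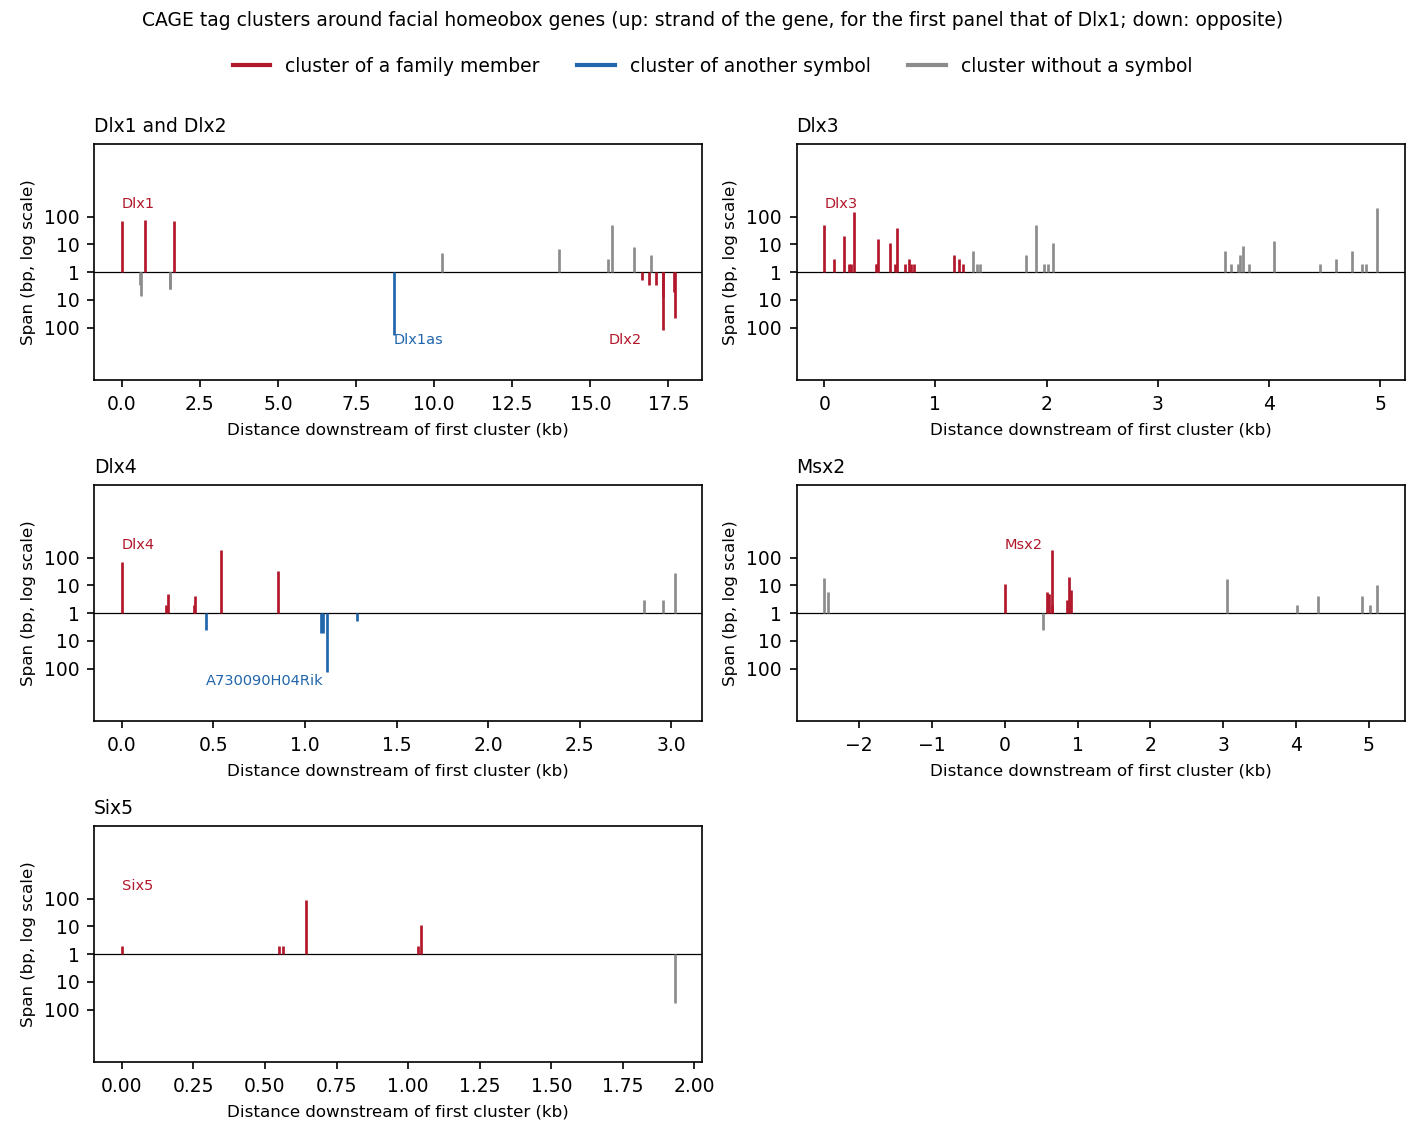
CAGE clusters around 5 facial loci, as the distance in kb from the first cluster of the gene, with bar height giving the span in bp on a log scale; bars point up on the strand of the gene (of Dlx1 in the top left panel). The last Dlx3 cluster is followed by 21 clusters without a symbol, and the clusters of Dlx1 and Dlx2 face each other across 14.9 kb.

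Msx2, which acts in the hair matrix and in skull sutures, had 9 clusters within 917 bp on the minus strand of chromosome 13, the widest of 184 bp (53568036 to 53568220). Within 5 kb past the last Msx2 cluster on the same strand lay a further 6 clusters without a symbol, which may lie inside the gene. Msx1, a gene of teeth and palate, had a single cluster of 146 bp (38215697 to 38215843) on chromosome 5, and Msx3, a gene of the dorsal neural tube, had none. Alx4, which acts in the frontonasal skeleton and in hair follicles, had 1 of 117 bp (93482369 to 93482486) on chromosome 2. Alx1, also frontonasal, had none. A single wide start site was thus found for Msx1, Alx4 and Dlx5, and many pieces for Msx2 and Dlx3. Joining clusters at most 100 bp apart left 2 groups for Msx2, as it did for Dlx3.

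Pitx1, a factor of the lower jaw, hindlimb and pituitary, had 3 clusters on chromosome 13, with wide ones of 130 bp and 117 bp on either side of a gap of 4.68 kb. Pitx3, a lens and dopamine neuron gene, had none. Clusters of a gene at least 1000 bp apart were found for 7 of the 35 genes, among them Hoxa7, Hoxb3, Hoxb6, Hoxc6, Hoxd3 and Pitx1, against 17.5% of protein-coding genes. That share is near the background.

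Of the Six-family genes, Six4 had 1 cluster of 3 bp on chromosome 12. Six5 had 6 clusters on chromosome 7, the widest of 89 bp (19679572 to 19679661), and lay 7.22 kb downstream of the last cluster of Dmpk, the myotonic dystrophy kinase gene. Six2, Six3 and Six6, known from kidney, forebrain and eye, had none. All 8 skeletal muscle markers were listed, 6 of them with a cluster of at least 10 bp. Of the myogenic factors among them, Myod1 had 1 cluster of 32 bp, Myog 1 of 6 bp and Myf5 1 of 2 bp. The part of muscle in the start sites of Six4 and Six5 was not tested. The Six-protein partners were listed for 5 of 6 genes, Eya1, Eya2, Eya3, Eya4 and Dach1, with 14 clusters for Dach1, and Dach2 had none.

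Other genes that work with or above these families were mostly listed. All 9 TALE cofactors, the Pbx, Meis and Pknox proteins that bind DNA with Hox factors, had a cluster of at least 10 bp, among them Meis2 with 6 clusters. So did all 17 chromatin regulators of Hox loci, which hold subunits of the repressive Polycomb complexes such as Ezh2 (4 clusters) and Cbx2 (4) and the activating methyltransferase Kmt2a (7, as Mll1). Of 10 upstream regulators of Hox genes, 5 were listed, among them Rara, Rarb, Rarg and Egr2, and 5 were not, Cdx1, Cdx2, Cdx4, Gbx2 and Gdf11. The listed ones include the retinoic acid receptors, and the missing ones include the caudal genes of the posterior trunk. Of 24 other facial patterning factors 21 were listed, 18 of them with a cluster of at least 10 bp. Prrx1 led with 16 clusters and Tfap2a had 14 under the older symbol Tcfap2a, while Barx1, Gsc and Hand1 had none. Of all protein-coding genes, 63.3% were listed and 59.9% had a cluster of at least 10 bp. The shares of these lists describe the catalogue only.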

How the data were processed

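Total RNA of 8 facial skin samples went into CAGE libraries prepared with a commercial kit, per the labels' protocols. The authors' deposited table gives, per row, a CAGE cluster's position and a gene symbol, which are neither counts nor levels. BWA, HISAT2 and mm9 are named in the submitters' processing notes, and how clusters were called or tied to genes is not given in the sources used here. The 8 columns of values have names that match no sample label and were not used, so the planned tests between groups were not run. Rows of the same position were counted as 1 cluster. Positions are printed as deposited (whether they count from 0 or 1 is not stated), and span is end minus start. Names were matched to RefSeq (GRCm38.p6), older symbols included where they lead to a single gene. Krt85 was not matched. The named genes are family members, list genes and antisense or shared-cluster partners, and some of them are not reported here. Members and lists were chosen with earlier results of these data known. Counting was tested on simulated data. Python 3.11.15 and pandas 2.3.3 were used.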

Additional observations from a re-analysis of the deposited data

How the results depend on the processing

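Of 28 alternatives run, 22 left their count or median within 1.5 times. Some of the 22 lay at that limit. With clusters of at least 10 bp, the median clusters per listed Hox gene fell from 3 to 2. Hox genes listed in groups 1 to 9 fell from 21 to 14. Clusters of at least 10 bp alone lowered the sites without a symbol to 3 of 6 in HoxA, 11 of 28 in HoxB, 4 of 11 in HoxC and 0 of 3 in HoxD. The median span over all clusters was 10 bp for Hox genes and 5 bp for facial genes, and became 38.5 and 125 bp with the widest cluster of each gene, which turned the order of the sets. Hox genes with a cluster were 15 with at least 10 bp and 20 without shared clusters, in place of 22. Nothing that needs the columns of values could be tried, such as leaving out libraries or other normalizations. No paired analysis was possible because these columns could not be tied to samples.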
